A study of Mus musculus with 12 samples.

Results

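Described here are 34 genes that act at the G1/S boundary or in DNA replication, followed across Etl4 knockout (KO) and wild-type (WT) androgenetic haploid mouse embryonic stem cells (ESCs). They were chosen by gene symbol, and all 34 were found among the 24421 symbols of each deposited count table and had enough reads to be tested in every comparison. They comprise 11 regulators (the D and E cyclins, their kinases, the pocket protein Rb1, E2f1 and Cdc25a), 5 licensing and origin recognition factors, 7 MCM genes, 3 partners of the replicative helicase, 5 fork, chromatin and repair factors, and 3 enzymes of nucleotide synthesis.

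RNA-seq counts were available for 12 libraries of such ESCs, whose 1 set of chromosomes comes from sperm alone, all on a C57BL/6 background. In the parental line OdG there were 2 libraries of Etl4 KO line 1, 2 libraries of Etl4 KO line 2 and 2 libraries of OdG WT, and in the parental line EG1 there were 3 libraries of Etl4 KO and 3 libraries of EG1 WT. The labels give neither the edit made in Etl4 nor whether a KO line is 1 clone, nor how many cells of a culture were still haploid when RNA was taken. Both OdG KO lines are compared with the same 2 OdG WT libraries, and no label says whether replicates are separate cultures, so a p-value here measures the spread among libraries alone, which could be technical.

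In the G1 phase, D cyclins with Cdk4 or Cdk6 and E cyclins with Cdk2 phosphorylate the retinoblastoma protein and its relatives, which releases E2F factors to switch on genes needed for S phase. Origins are licensed when the origin recognition complex, Cdc6 and Cdt1 load the ring of MCM subunits onto DNA, and the ring becomes the replicative helicase when Cdc45 and the GINS complex join it. Mouse ESCs are known for a short G1 phase and for high activity of Cdk2 with its cyclins through much of the cycle.

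Total counts ran from 16110028 to 19706599 per library. Values are given in CPM, counts scaled to a library total common to the 12 libraries, and differences as log2 fold changes with their standard errors (SE). A gene was called at an adjusted p under 0.05 (edgeR's quasi-likelihood test, Benjamini-Hochberg over all genes tested), and every adjusted p below is of that kind. Etl4 itself stood at 47.6% of OdG WT in line 1, at 53.8% in line 2 and at 50.2% of EG1 WT in EG1 KO. All 10 ESC markers examined exceeded 1 CPM in every library. The 10 fibroblast markers summed to 172 to 177 CPM in line 1 (3 of them at 0), 163 to 171 CPM in line 2 and 247 to 262 CPM in OdG WT, and to 78.9 to 87.7 CPM in EG1 KO (4 at 0) and 85.5 to 86.9 CPM in EG1 WT (3 at 0), with most reads from Fbln1 and Col3a1, Postn, Lum and Dcn at most at 0.362 CPM. The 10 trophoblast markers summed to 327 to 329 CPM in line 1, 289 to 303 CPM in line 2 and 253 to 254 CPM in OdG WT, and to 116 to 119 CPM in EG1 KO and 110 to 119 CPM in EG1 WT. Its members did not move together: Tfap2c had 10.8 and 9.90 CPM in line 1 and 114 and 109 CPM in line 2, against 0.288 and 0.472 CPM in OdG WT, whereas Krt8 had 117 and 119 CPM in line 1 and 49.4 and 46.6 CPM in line 2, against 87.2 and 89.8 CPM in OdG WT, and Krt18 and Krt7 were also lower in both line 2 libraries than in OdG WT. The 8 primitive endoderm markers summed to 7.10 to 8.64 CPM in line 1, 10.1 to 11.0 CPM in line 2 and 12.7 to 12.9 CPM in OdG WT, and to 7.28 to 8.33 CPM in EG1 KO and 8 to 8.86 CPM in EG1 WT. These sums moved with the OdG comparison, and their part in the results was not tested. In bulk RNA, more cells in a given phase and more RNA per cell cannot be told apart.

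In OdG, more of the 34 genes rose than fell in both KO lines, and the 6 MCM subunits, Ccnd1, Ccne1, Cdk6, Gins1, Fen1 and Ung were among those that rose. In line 1, 16 of the 34 rose (47.1%) and 3 fell (8.82%), beside 26.8% of all genes tested that rose and 26.1% that fell. In line 2, 18 rose (52.9%) and 4 fell (11.8%), beside 30.0% and 29.8% of all genes. The median log2 change of the 34 was 0.11 in line 1 and 0.11 in line 2, beside a median of -0.01 over all genes in each. Since more than 1 in 2 genes passed the test in OdG in either direction (52.8% in line 1 and 59.9% in line 2), a single call there says little by itself, and the size of each change is given below.

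The 16 genes that rose in line 1 were Ccnd1, Ccnd3, Ccne1, Cdk4, Cdk6, Mcm2 to Mcm7, Mcm10, Gins1, Fen1, Ung and Tyms, and the 3 that fell were E2f1, Slbp and Rrm2. The 18 that rose in line 2 were Ccnd1, Ccnd3, Ccne1, Ccne2, Cdk2, Cdk6, Orc1, Mcm2 to Mcm7, Gins1, Fen1, Chaf1a, Ung and Tyms, and the 4 that fell were E2f1, Gmnn, Rrm1 and Rrm2. Because the lines share their WT libraries, a call in both is not independent, and each line's own values are given below. Ccnd2, Rb1, Cdc25a, Orc6, Cdc6, Cdt1, Cdc45, Gins2 and Pcna passed the test in no comparison of KO with WT. In line 2 against line 1, Cdc25a was higher by 0.13 ± 0.039 (adjusted p = 0.013). Gins2 was lower there by 0.18 ± 0.056 (adjusted p = 0.016), and both calls were lost by DESeq2. Ccnd2 was called in the direct test of the OdG change against the EG1 change, given at the end. The summed level of the 34 genes was 7040 and 7131 CPM in line 1 and 7254 and 7235 CPM in line 2, against 6428 and 6441 CPM in OdG WT. In EG1 the sum was between 7705 and 7938 CPM in KO and between 7519 and 7577 CPM in WT.

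**Figure D1:**
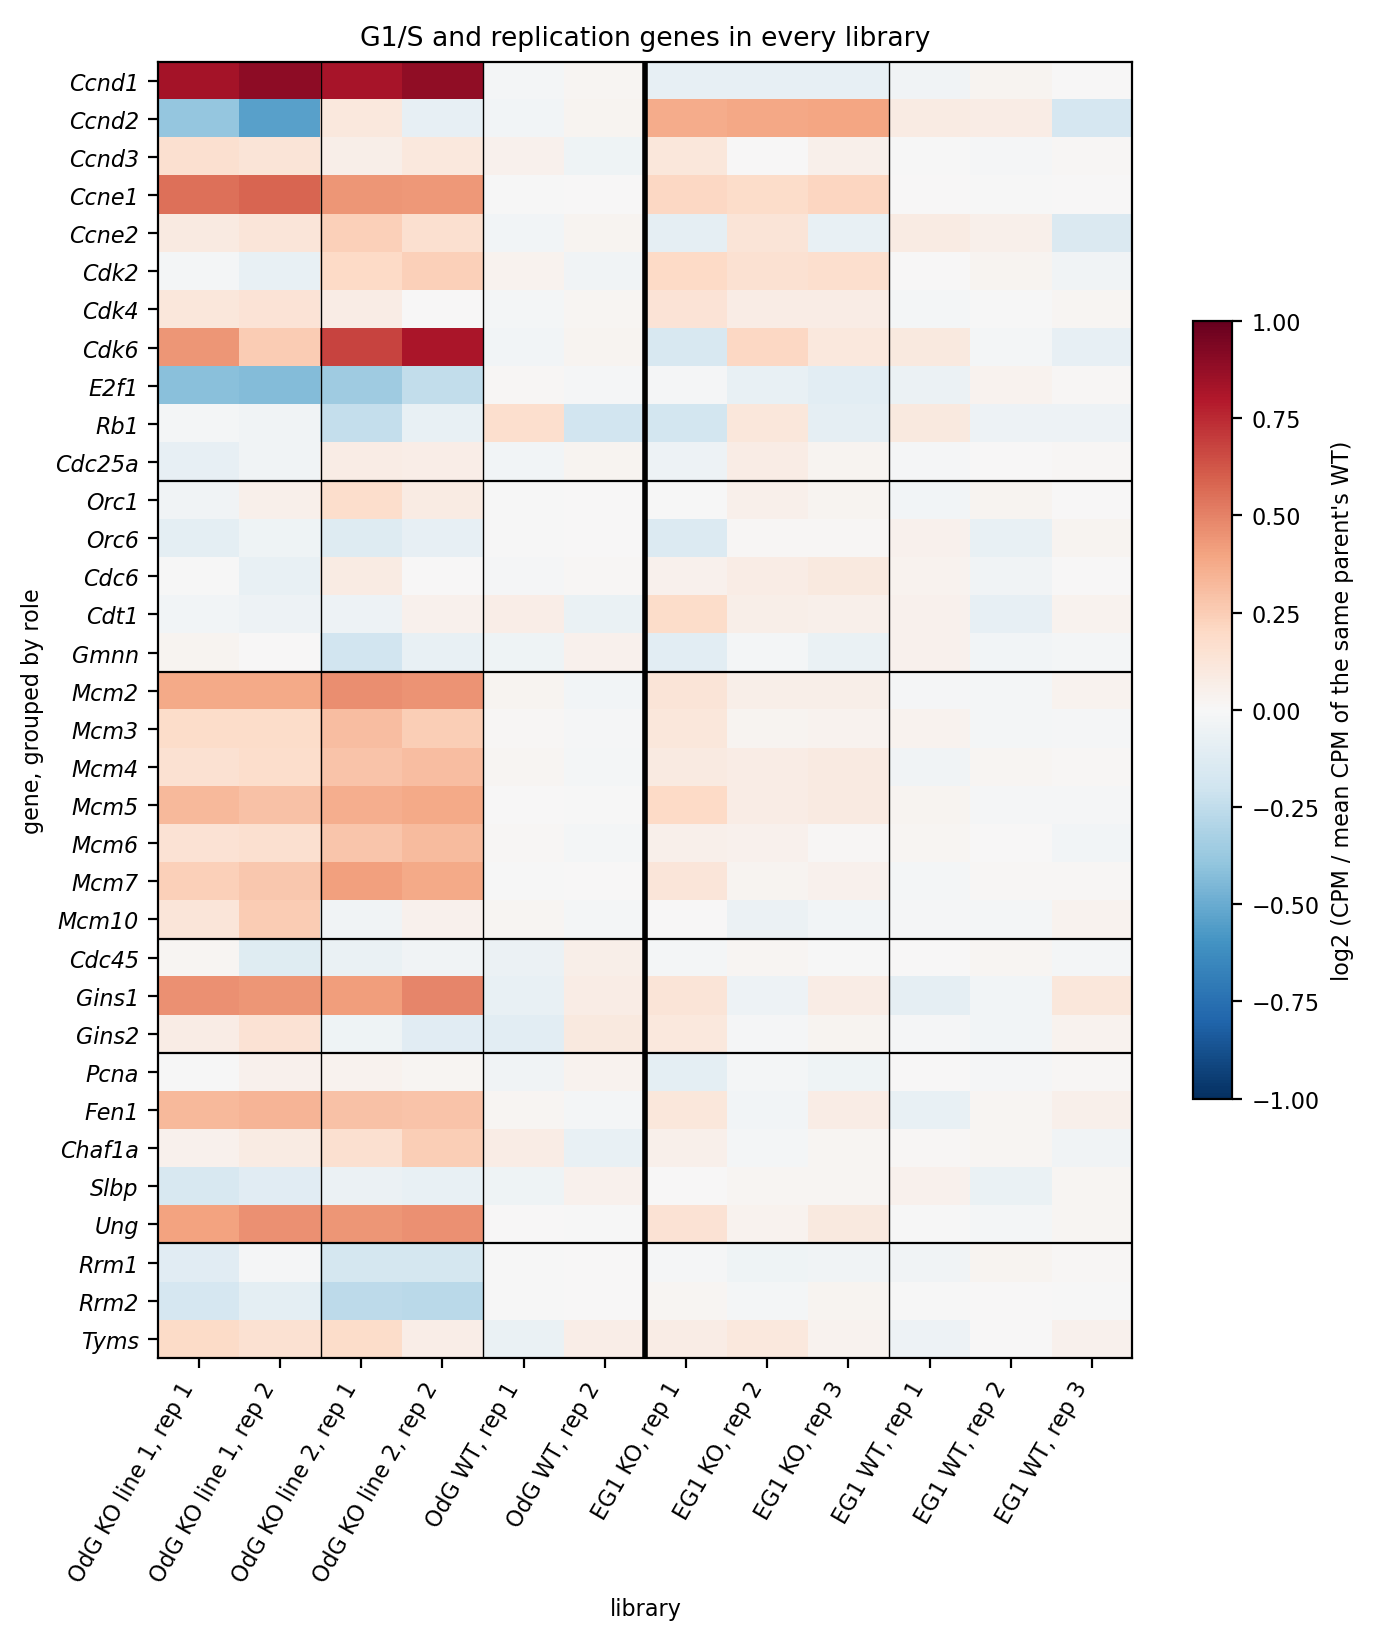
Level of each of the 34 genes (rows, grouped by role) in each of the 12 libraries (columns), as the log2 ratio to the mean CPM of the WT of the same parental line (colour, red above and blue below). Ccnd1, Ccne1, Cdk6, Mcm2 to Mcm7, Gins1, Fen1 and Ung are red in all 4 OdG KO libraries, E2f1 and Rrm2 are blue there, and the EG1 KO columns are mostly pale.

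Among the regulators, Ccnd1 had the largest change of all 34 genes in OdG. Cyclin D1, its product, pairs with Cdk4 and Cdk6 and links growth signals to the cell cycle; the gene lies on chr7:144929931-144939925 (minus strand). Ccnd1 had 187 and 196 CPM in line 1 and 187 and 195 CPM in line 2, against 104 and 107 CPM in OdG WT. In EG1, Ccnd1 had 143, 143 and 144 CPM in KO and 148, 155 and 153 CPM in WT. All 4 OdG KO libraries were far above both WT libraries, whereas the 3 EG1 KO libraries lay slightly below the 3 EG1 WT libraries. The log2 change was 0.86 ± 0.041 in line 1 (adjusted p = 1.8e-11), 0.86 ± 0.041 in line 2 (adjusted p = 1e-11) and -0.09 ± 0.037 in EG1, where it did not pass the test (adjusted p = 0.17). In the annotation, 23.4% of the exon bases of Ccnd1 overlap another gene, LTO1.

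The other D cyclins moved less. Ccnd2 was a low gene, with 39 to 82 raw counts per library. It had 2.75 and 2.46 CPM in line 1, 3.86 and 3.38 CPM in line 2 and 3.52 and 3.66 CPM in OdG WT, and 4.65, 4.70 and 4.73 CPM in EG1 KO against 3.80, 3.78 and 3.21 CPM in EG1 WT. Line 1 lay below OdG WT, line 2 overlapped it and EG1 KO lay above EG1 WT, but none of these differences passed the test, with log2 changes of -0.45 ± 0.20, 0.02 ± 0.19 and 0.39 ± 0.16. Ccnd3, which encodes the third D cyclin, averaged 415 ± 6.03 CPM in line 1 and 398 ± 7.98 CPM in line 2, against 376 ± 15.5 CPM in OdG WT (SD, n = 2 each). Ccnd3 rose by 0.15 ± 0.035 in line 1 (adjusted p = 0.0018) and by 0.09 ± 0.035 in line 2 (adjusted p = 0.03). The line 2 call was lost without any 1 library other than replicate 1 of OdG WT (adjusted p = 0.053 to 0.22) and by DESeq2 (adjusted p = 0.064).

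Ccne1, on chr7:38097984-38107534 (minus strand), encodes cyclin E1, the partner of Cdk2 at the entry into S phase. Ccne1 had 116 and 118 CPM in line 1 and 108 and 107 CPM in line 2, against 78.7 and 79.4 CPM in OdG WT. It had 173, 170.2 and 174 CPM in EG1 KO and 150.5, 149 and 150.0 CPM in EG1 WT. Every KO library was above every WT library of its own parental line. Ccne1 rose by 0.57 ± 0.041 in line 1 (adjusted p = 3.7e-09), by 0.45 ± 0.042 in line 2 (adjusted p = 5.7e-08) and by 0.20 ± 0.036 in EG1 (adjusted p = 0.00028). Ccne2, its relative, averaged 22.3 ± 0.355 CPM in line 1 and 23.8 ± 0.922 CPM in line 2, against 20.8 ± 0.578 CPM in OdG WT (SD, n = 2 each), and passed the test in line 2 (log2 change 0.21 ± 0.083, adjusted p = 0.04), a call lost without any 1 of the 6 OdG libraries (adjusted p = 0.052 to 0.18) and by DESeq2 (adjusted p = 0.16).

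Among the kinases, Cdk2, the kinase of cyclin E, lies on chr10:128697939-128705031 (minus strand). It had 118 and 114 CPM in line 1 and 137 and 141 CPM in line 2, against 123 and 117 CPM in OdG WT, and 152, 146 and 148 CPM in EG1 KO against 132, 134 and 129 CPM in EG1 WT. Line 1 overlapped OdG WT in range, whereas line 2 and EG1 KO each lay wholly above their WT. Cdk2 rose by 0.23 ± 0.041 in line 2 (adjusted p = 0.00015) and by 0.17 ± 0.038 in EG1 (adjusted p = 0.0026), and its log2 change in line 1 was -0.04 ± 0.042 (adjusted p = 0.42). Over both OdG lines together it passed narrowly (0.09 ± 0.036, adjusted p = 0.038) and no longer passed by DESeq2 (adjusted p = 0.14) or without replicate 1 of line 1, either replicate of line 2 or replicate 2 of OdG WT (adjusted p = 0.053 to 0.25).

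Cdk6, on chr5:3341485-3531008 (plus strand), is a kinase partner of the D cyclins. It had 33.1 and 29.1 CPM in line 1 and 38.9 and 43.0 CPM in line 2, against 23.9 and 24.9 CPM in OdG WT, and 13.7, 17.7 and 16.5 CPM in EG1 KO against 16.4, 15.1 and 14.5 CPM in EG1 WT. The 4 OdG KO libraries were above OdG WT, line 2 more so than line 1, and the EG1 groups overlapped. Cdk6 rose by 0.36 ± 0.086 in line 1 (adjusted p = 0.002) and by 0.76 ± 0.083 in line 2 (adjusted p = 4.7e-07), against a log2 change of 0.06 ± 0.093 in EG1 (adjusted p = 0.77). Without replicate 1 of line 1 the call in line 1 was lost (adjusted p = 0.061). Cdk4, the other D cyclin kinase, averaged 378 ± 3.28 CPM in line 1 and 357 ± 12.2 CPM in line 2, against 346 ± 7.83 CPM in OdG WT (SD, n = 2 each), and rose by 0.13 ± 0.034 in line 1 (adjusted p = 0.0042), while its log2 change of 0.05 in line 2 did not pass the test (adjusted p = 0.21) and neither did the difference between the lines (adjusted p = 0.084).

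E2f1, on chr2:154559407-154569892 (minus strand), encodes the E2F factor best known as an activator of S-phase genes, and it fell in OdG. It had 86.0 and 85.0 CPM in line 1 and 90.0 and 96.8 CPM in line 2, against 116 and 114 CPM in OdG WT. In EG1 it had 105, 101 and 98.4 CPM in KO and 102, 109 and 107 CPM in WT. All 4 OdG KO libraries were below both OdG WT libraries, and the EG1 groups overlapped. E2f1 fell by 0.42 ± 0.045 in line 1 (adjusted p = 4.6e-07) and by 0.29 ± 0.044 in line 2 (adjusted p = 2.4e-05) on the log2 scale, and its log2 change in EG1 was -0.07 ± 0.043 (adjusted p = 0.4). Rb1, the pocket protein that holds E2F factors in check, and Cdc25a, the phosphatase that activates Cdk2, passed the test in no comparison of KO with WT. Rb1 averaged 8.74 ± 0.0517 CPM in line 1 and 8.01 ± 0.669 CPM in line 2, against 8.91 ± 1.59 CPM in OdG WT (SD, n = 2 each), and Cdc25a averaged 135 ± 2.88, 148 ± 0.607 and 141 ± 3.86 CPM in the same groups.

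**Figure D2:**
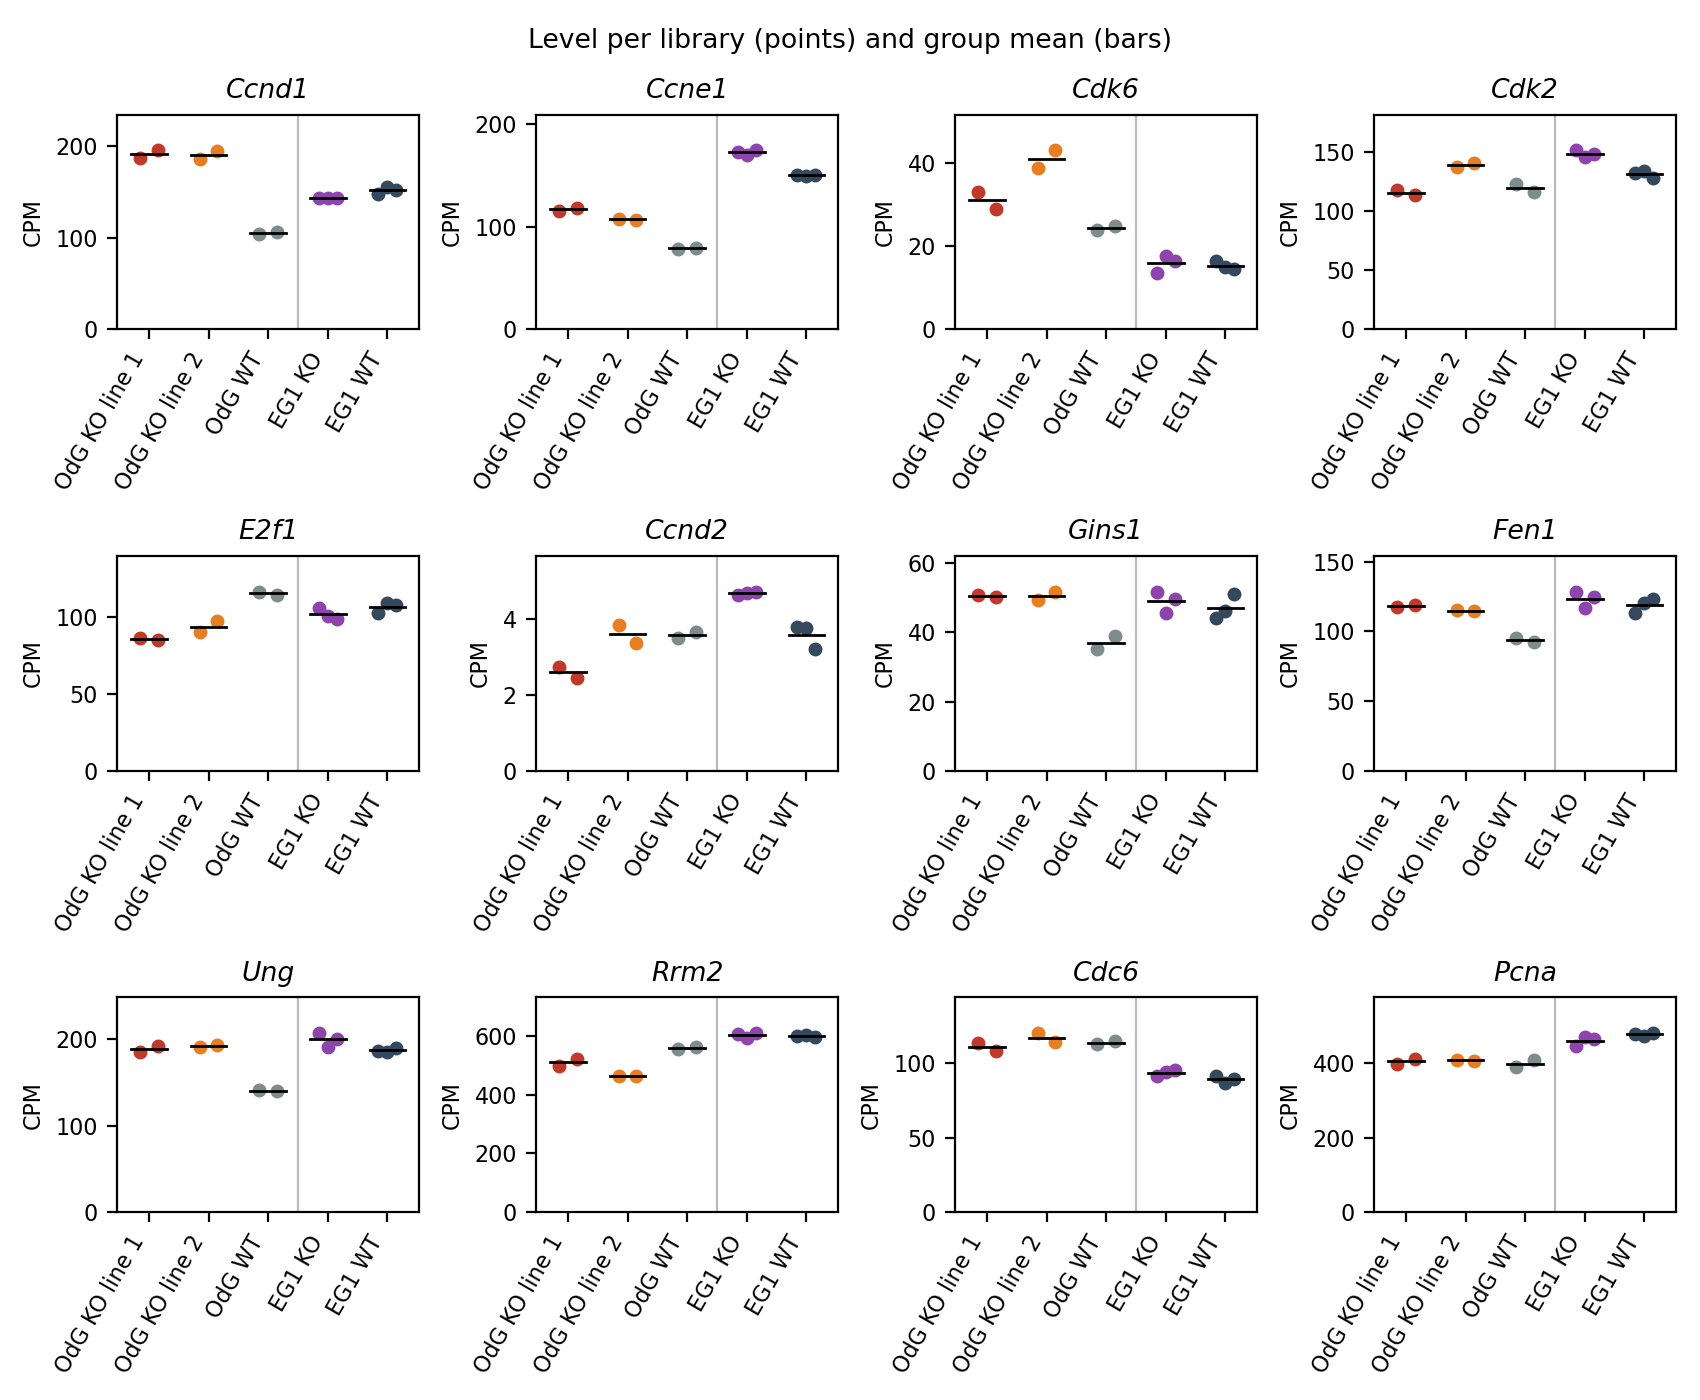
CPM per library (points) and group mean (bars) for 12 genes, each on its own axis from 0, with the OdG groups left of the grey line and the EG1 groups right of it. Ccnd1 stands at 187 to 196 CPM in the 4 OdG KO libraries and at 104 and 107 CPM in OdG WT, E2f1 is lower in OdG KO, and Cdc6 and Pcna show little difference between KO and WT.

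The 5 licensing and origin recognition genes in this set moved little. The 4 other subunits of the origin recognition complex are outside the set. Of those, 2 rose and 1 fell in line 1 (50% and 25%, beside 26.8% and 26.1% of all genes). In line 2, 3 of them rose (75%, beside 30.0%), and Orc2, given further below, rose in both lines. Orc1 and Orc6 encode subunits of the origin recognition complex, Cdc6 and Cdt1 load the MCM ring, and Gmnn encodes geminin, the inhibitor of Cdt1. Over the mean of both OdG lines the log2 changes of these 5 lay between -0.08 and 0.08. Of the 5, 0 were called by edgeR or by DESeq2, beside 59.9% and 46.7% of all genes. At an unadjusted p under 0.05, 1 was lower, beside 4683 of the 14413 genes tested. In line 2, Orc1 rose by 0.14 ± 0.047 (adjusted p = 0.015) and Gmnn fell by 0.12 ± 0.048 (adjusted p = 0.035). The Orc1 call was lost without replicate 1 of line 2 (adjusted p = 0.18) and by DESeq2 (adjusted p = 0.075). The Gmnn call was lost without either replicate of line 1, replicate 1 of line 2 or replicate 2 of OdG WT (adjusted p = 0.052 to 0.37) and by DESeq2 (adjusted p = 0.16). Cdc6 averaged 111 ± 3.67 CPM in line 1 and 117 ± 4.45 CPM in line 2, against 114 ± 1.15 CPM in OdG WT (SD, n = 2 each), and 93.6 ± 1.79 CPM in EG1 KO against 89.1 ± 2.13 CPM in EG1 WT (SD, n = 3 each). Cdt1 averaged 168 ± 2.37, 173 ± 7.65 and 173 ± 11.2 CPM in line 1, line 2 and OdG WT, and 186 ± 9.65 CPM in EG1 KO against 173 ± 7.95 CPM in EG1 WT.

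All 6 subunits of the MCM ring, Mcm2 to Mcm7, rose in both OdG lines, by 0.16 to 0.39 in line 1 and by 0.29 to 0.47 in line 2 on the log2 scale. Their summed level was 2872 and 2882 CPM in line 1 and 3104 and 3099 CPM in line 2, against 2415 and 2458 CPM in OdG WT.

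Mcm2, on chr6:88883474-88898780 (minus strand), had 471 and 471 CPM in line 1 and 500.2 and 494 CPM in line 2, against 368 and 356 CPM in OdG WT, and 601, 572 and 571 CPM in EG1 KO against 543, 541 and 561 CPM in EG1 WT. The 4 OdG KO libraries were above both WT libraries, line 2 more so than line 1, and each of the 3 EG1 KO libraries was above the 3 EG1 WT libraries by less. Mcm2 rose by 0.39 ± 0.031 in line 1 (adjusted p = 1.6e-08) and by 0.47 ± 0.031 in line 2 (adjusted p = 7.9e-10), the largest rise of a subunit in both lines. Its log2 change of 0.08 ± 0.032 in EG1 did not pass the test (adjusted p = 0.12).

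Mcm5, on chr8:75109569-75128439 (plus strand), was the subunit called in EG1. It had 572 and 558 CPM in line 1 and 589 and 595 CPM in line 2, against 459 and 454 CPM in OdG WT. It had 572, 525 and 529.8 CPM in EG1 KO and 509, 493 and 493 CPM in EG1 WT. Each KO library was above each WT library of its parental line, with replicate 1 of EG1 KO standing above the other two. Mcm5 rose by 0.31 ± 0.030 in line 1 (adjusted p = 1.4e-07), by 0.38 ± 0.030 in line 2 (adjusted p = 6.6e-09) and by 0.12 ± 0.034 in EG1 (adjusted p = 0.023). The EG1 call was lost without replicate 1 of EG1 KO (adjusted p = 0.069), replicate 2 of EG1 WT (adjusted p = 0.11) or replicate 3 of EG1 WT (adjusted p = 0.12).

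Mcm7, on chr5:138164583-138172422 (minus strand), had 419.8 and 428 CPM in line 1 and 472 and 463 CPM in line 2, against 355 and 356 CPM in OdG WT, and 609, 571 and 577 CPM in EG1 KO against 552, 563 and 563 CPM in EG1 WT. Line 2 was highest among the OdG groups and OdG WT lowest, with no overlap, and all EG1 libraries were higher still, KO above WT. Mcm7 rose by 0.26 ± 0.031 in line 1 (adjusted p = 2e-06) and by 0.41 ± 0.031 in line 2 (adjusted p = 4.8e-09), and its log2 change of 0.07 ± 0.032 in EG1 did not pass the test (adjusted p = 0.23). In the annotation 12.6% of its exon bases overlap other genes.

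The remaining subunits changed by similar amounts in OdG. Mcm3, on chr1:20802968-20820312 (minus strand), had 460.5 and 461 CPM in line 1 and 502 and 480.4 CPM in line 2, against 408 and 402 CPM in OdG WT, and 568, 535 and 538 CPM in EG1 KO against 536, 517 and 519.5 CPM in EG1 WT. Mcm4, on chr16:15623897-15637400 (minus strand), had 443 and 451 CPM in line 1 and 488 and 496 CPM in line 2, against 405 and 395 CPM in OdG WT, and 451, 445 and 452 CPM in EG1 KO against 414, 431 and 428 CPM in EG1 WT. Mcm6, on chr1:128331590-128359664 (minus strand), had 505 and 512 CPM in line 1 and 554 and 571 CPM in line 2, against 463 and 453 CPM in OdG WT, and 454, 452 and 443 CPM in EG1 KO against 446, 441 and 431 CPM in EG1 WT. For Mcm3, Mcm4 and Mcm6, each OdG KO library was above both OdG WT libraries, with line 2 above line 1; in EG1, Mcm4 was higher in each KO library than in each WT library, and the groups overlapped for Mcm3 and Mcm6. The log2 rise was 0.19 ± 0.032 for Mcm3, 0.17 ± 0.031 for Mcm4 and 0.16 ± 0.031 for Mcm6 in line 1, and 0.29 ± 0.032, 0.31 ± 0.031 and 0.31 ± 0.031 in line 2, with adjusted p of at most 0.00036 in each case. Mcm10, a separate factor that helps to fire the loaded helicase, rose in line 1 (0.19 ± 0.045, adjusted p = 0.0019) and was lower in line 2 than in line 1 by 0.18 ± 0.045 (adjusted p = 0.0048); the call in line 1 was lost without replicate 2 of line 1 (adjusted p = 0.061).

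Per kilobase of transcript the 6 subunits, which enter the ring in equal numbers, were within 1.40 to 1.42 times of each other in the OdG KO libraries and within 1.46 to 1.47 times in OdG WT. The spread was 1.55 to 1.64 times in EG1 KO and 1.58 to 1.61 times in EG1 WT. Mcm6 was highest in the OdG groups, with a mean of 175 CPM per kb in line 1, 193 CPM per kb in line 2 and 157 CPM per kb in OdG WT. Mcm7 was highest in EG1, with 198 CPM per kb in KO and 189 CPM per kb in WT, against 155 and 151 CPM per kb for Mcm6. These levels divide by the longest principal transcript in the annotation. The order of the subunits, the spread between them and how that spread ranks between groups all depend on that length. For Mcm2 it is 3371 bases, against 6956 for the union of all exons. With that union, Mcm2 was lowest in every group, and Mcm5 was highest in OdG and Mcm3 in EG1. A ratio between groups for 1 gene does not depend on the length used.

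**Figure D3:**
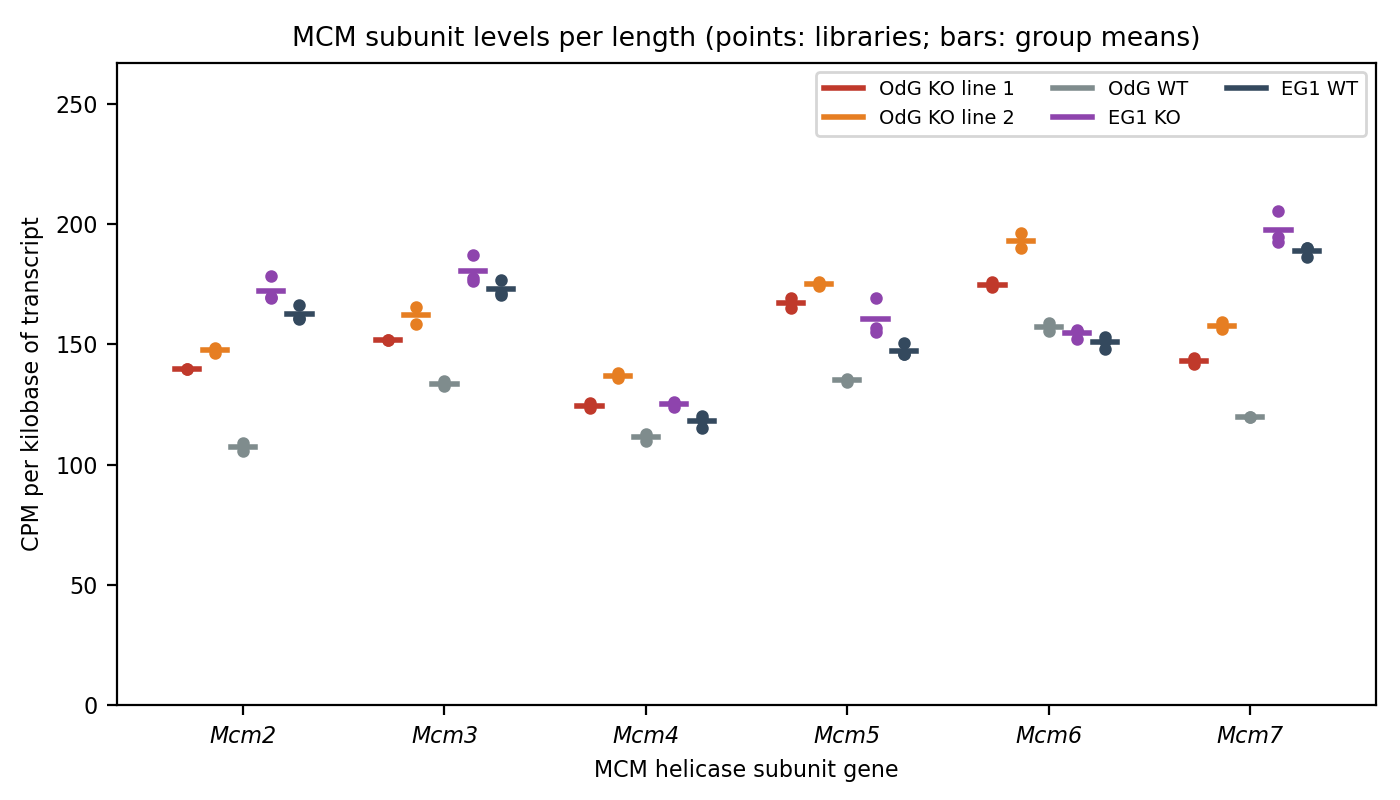
CPM per kilobase of the longest principal transcript for the 6 MCM subunits (points are libraries, bars are group means, colours are groups). Within each subunit line 2 lies above line 1 and line 1 above OdG WT, while the EG1 groups lie above the OdG groups for Mcm2, Mcm3 and Mcm7 and not above both OdG KO lines for Mcm4, Mcm5 and Mcm6.

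Promoter sequence was examined for the genes that had an entry among the RefSeq promoters (GRCm38.p6, 250 bases before to 50 after the start), which held 26 of the 34. The letters TTTCCCGC, TTTGGCGC, TTTCGCGC and TTTGCCGC, which resemble the site bound by E2F factors, were searched on both strands, and matches may overlap. At least 1 was present in 9 of the 26 genes (34.6%), namely Cdk2, Cdc25a, Orc1, Cdc6, Cdt1, Mcm3, Mcm5, Mcm6 and Mcm7, against 704 of 27025 genes in all (2.6%). CCAAT was present in 17 of the 26 (65.4%), against 41.1% of all genes. The 170 bases before the start are printed for 5 genes, in lower case with the E2F letters in capitals: Mcm5 and Mcm6 rose in OdG and hold matches that overlap on opposite strands, Orc1 holds a match and was called in line 2, and Mcm2 and Ccne1 rose by more than Mcm5 in line 1 and hold none.
Mcm5 (chr8:75109339-75109508, plus strand): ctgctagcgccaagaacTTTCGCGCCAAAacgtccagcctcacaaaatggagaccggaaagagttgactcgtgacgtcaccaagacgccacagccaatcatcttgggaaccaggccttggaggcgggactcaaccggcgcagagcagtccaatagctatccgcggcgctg
Mcm6 (chr1:128359706-128359875, minus strand): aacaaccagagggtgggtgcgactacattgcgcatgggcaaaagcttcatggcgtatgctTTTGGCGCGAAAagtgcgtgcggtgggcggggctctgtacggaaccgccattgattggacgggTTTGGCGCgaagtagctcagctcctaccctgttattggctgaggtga
Orc1 (chr4:108579284-108579453, plus strand): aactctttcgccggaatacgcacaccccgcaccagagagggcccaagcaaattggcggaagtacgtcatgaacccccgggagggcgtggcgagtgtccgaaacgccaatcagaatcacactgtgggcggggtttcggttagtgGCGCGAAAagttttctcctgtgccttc
Mcm2 (chr6:88898781-88898950, minus strand): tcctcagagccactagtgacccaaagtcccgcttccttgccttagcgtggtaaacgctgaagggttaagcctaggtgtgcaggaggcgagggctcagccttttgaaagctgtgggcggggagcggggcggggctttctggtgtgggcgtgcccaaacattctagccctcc
Ccne1 (chr7:38107491-38107660, minus strand): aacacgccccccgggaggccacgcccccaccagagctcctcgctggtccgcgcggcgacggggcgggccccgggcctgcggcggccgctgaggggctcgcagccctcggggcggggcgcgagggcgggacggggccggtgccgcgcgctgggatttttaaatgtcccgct
In line 1, 4 of the 9 genes with E2F letters rose, with a median log2 change of 0.01, beside 9 risen and 3 fallen of the 17 without, with a median of 0.13. In line 2, 6 of the 9 rose, with a median of 0.23, beside 8 risen and 3 fallen of the 17, with a median of 0.05. The order of these medians thus differed between the lines, and the genes in each set were too few and too varied for more than a description.

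Of the partners that complete the helicase, Gins1 rose and Cdc45 and Gins2 did not pass the test in either line. Gins1, on chr2:150905400-150931280 (plus strand), encodes a GINS subunit. It had 50.6 and 50.3 CPM in line 1 and 49.4 and 51.7 CPM in line 2, against 35.1 and 38.9 CPM in OdG WT, and 51.6, 45.6 and 49.8 CPM in EG1 KO against 44.2, 46.3 and 51.0 CPM in EG1 WT. The OdG KO libraries were close together and above OdG WT, and the EG1 groups overlapped. Gins1 rose by 0.45 ± 0.066 in line 1 (adjusted p = 1.8e-05) and by 0.46 ± 0.066 in line 2 (adjusted p = 1.1e-05), and its log2 change in EG1 was 0.05 ± 0.060 (adjusted p = 0.68). Cdc45 averaged 72.9 ± 4.92 CPM in line 1, 72.9 ± 1.19 CPM in line 2 and 75.5 ± 4.13 CPM in OdG WT (SD, n = 2 each). Gins2, for which 67.3% of exon bases overlap another gene, Gse1, averaged 97.2 ± 3.25, 85.2 ± 3.05 and 89.9 ± 8.73 CPM in the same groups.

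At the fork, Fen1 and Ung rose in both OdG lines. Fen1, the flap endonuclease that trims Okazaki fragments, lies on chr19:10199132-10204169 (minus strand). It had 117 and 119 CPM in line 1 and 115 and 114 CPM in line 2, against 95.0 and 92.6 CPM in OdG WT, and 128, 116 and 125 CPM in EG1 KO against 113, 120.5 and 123 CPM in EG1 WT. The OdG KO libraries lay above OdG WT and the EG1 groups overlapped. Fen1 rose by 0.34 ± 0.040 in line 1 (adjusted p = 1.7e-06) and by 0.30 ± 0.040 in line 2 (adjusted p = 5.1e-06). Because 84.2% of its exon bases overlap other genes, Tmem258 and Gm10143, and the strand setting of the counting is not given in the sources used here, its reads cannot be assigned to it with certainty.

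Ung, on chr5:114130386-114139323 (plus strand), encodes the glycosylase that removes uracil from DNA. It had 186 and 193 CPM in line 1 and 191 and 193 CPM in line 2, against 141 and 140.4 CPM in OdG WT, and 207, 192 and 201 CPM in EG1 KO against 187, 185 and 189.5 CPM in EG1 WT. All 4 OdG KO libraries stood at 1 level above OdG WT, and in EG1 each KO library was above each WT library by a small margin. Ung rose by 0.43 ± 0.038 in line 1 (adjusted p = 4.5e-08) and by 0.46 ± 0.038 in line 2 (adjusted p = 1.3e-08), and its log2 change in EG1 was 0.09 ± 0.037 (adjusted p = 0.13). Pcna, the sliding clamp of the replicative polymerases, did not share these changes. It averaged 406 ± 9.04 CPM in line 1 and 408 ± 2.99 CPM in line 2, against 399 ± 14.1 CPM in OdG WT (SD, n = 2 each), with log2 changes of 0.03 ± 0.034 and 0.04 ± 0.034 that did not pass the test. Chaf1a, a subunit of the histone chaperone that works behind the fork, rose in line 2 (0.21 ± 0.050, adjusted p = 0.0013), with 52.5% of its exon bases shared with Ubxn6. Slbp, which binds the stem-loop of histone mRNA, fell in line 1 (-0.13 ± 0.041, adjusted p = 0.013), a call lost without replicate 1 of line 1 (adjusted p = 0.12), without replicate 2 of OdG WT (adjusted p = 0.11) and by DESeq2 (adjusted p = 0.067).

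The enzymes that make DNA precursors moved in opposite directions. Rrm2, on chr12:24708241-24714146 (plus strand), encodes the small subunit of ribonucleotide reductase and fell in OdG. It had 497 and 523 CPM in line 1 and 465 and 464 CPM in line 2, against 556 and 561 CPM in OdG WT, and 606, 592 and 609.6 CPM in EG1 KO against 598, 602 and 598 CPM in EG1 WT. The OdG KO libraries were below OdG WT, line 2 lowest, and the EG1 groups overlapped. Rrm2 fell by 0.13 ± 0.032 in line 1 (adjusted p = 0.0025) and by 0.26 ± 0.032 in line 2 (adjusted p = 2e-06), and the line 1 call was lost without its replicate 1 (adjusted p = 0.094). Rrm1, the large subunit, fell in line 2 (-0.17 ± 0.038, adjusted p = 0.0011), with 204 ± 0.0498 CPM there, 221 ± 10.5 CPM in line 1 and 231 ± 1.16 CPM in OdG WT (SD, n = 2 each). Tyms, thymidylate synthase, rose by 0.18 ± 0.057 in line 1 (adjusted p = 0.014) and by 0.13 ± 0.057 in line 2 (adjusted p = 0.05 when rounded, under the threshold). Both Tyms calls were lost by DESeq2 (adjusted p = 0.07 in line 1 and 0.15 in line 2). The line 1 call was also lost without replicate 1 of line 1 (adjusted p = 0.12) or of OdG WT (adjusted p = 0.11), and the line 2 call without either replicate of line 1 or replicate 1 of line 2 or of OdG WT (adjusted p = 0.07 to 0.36).

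**Figure D4:**
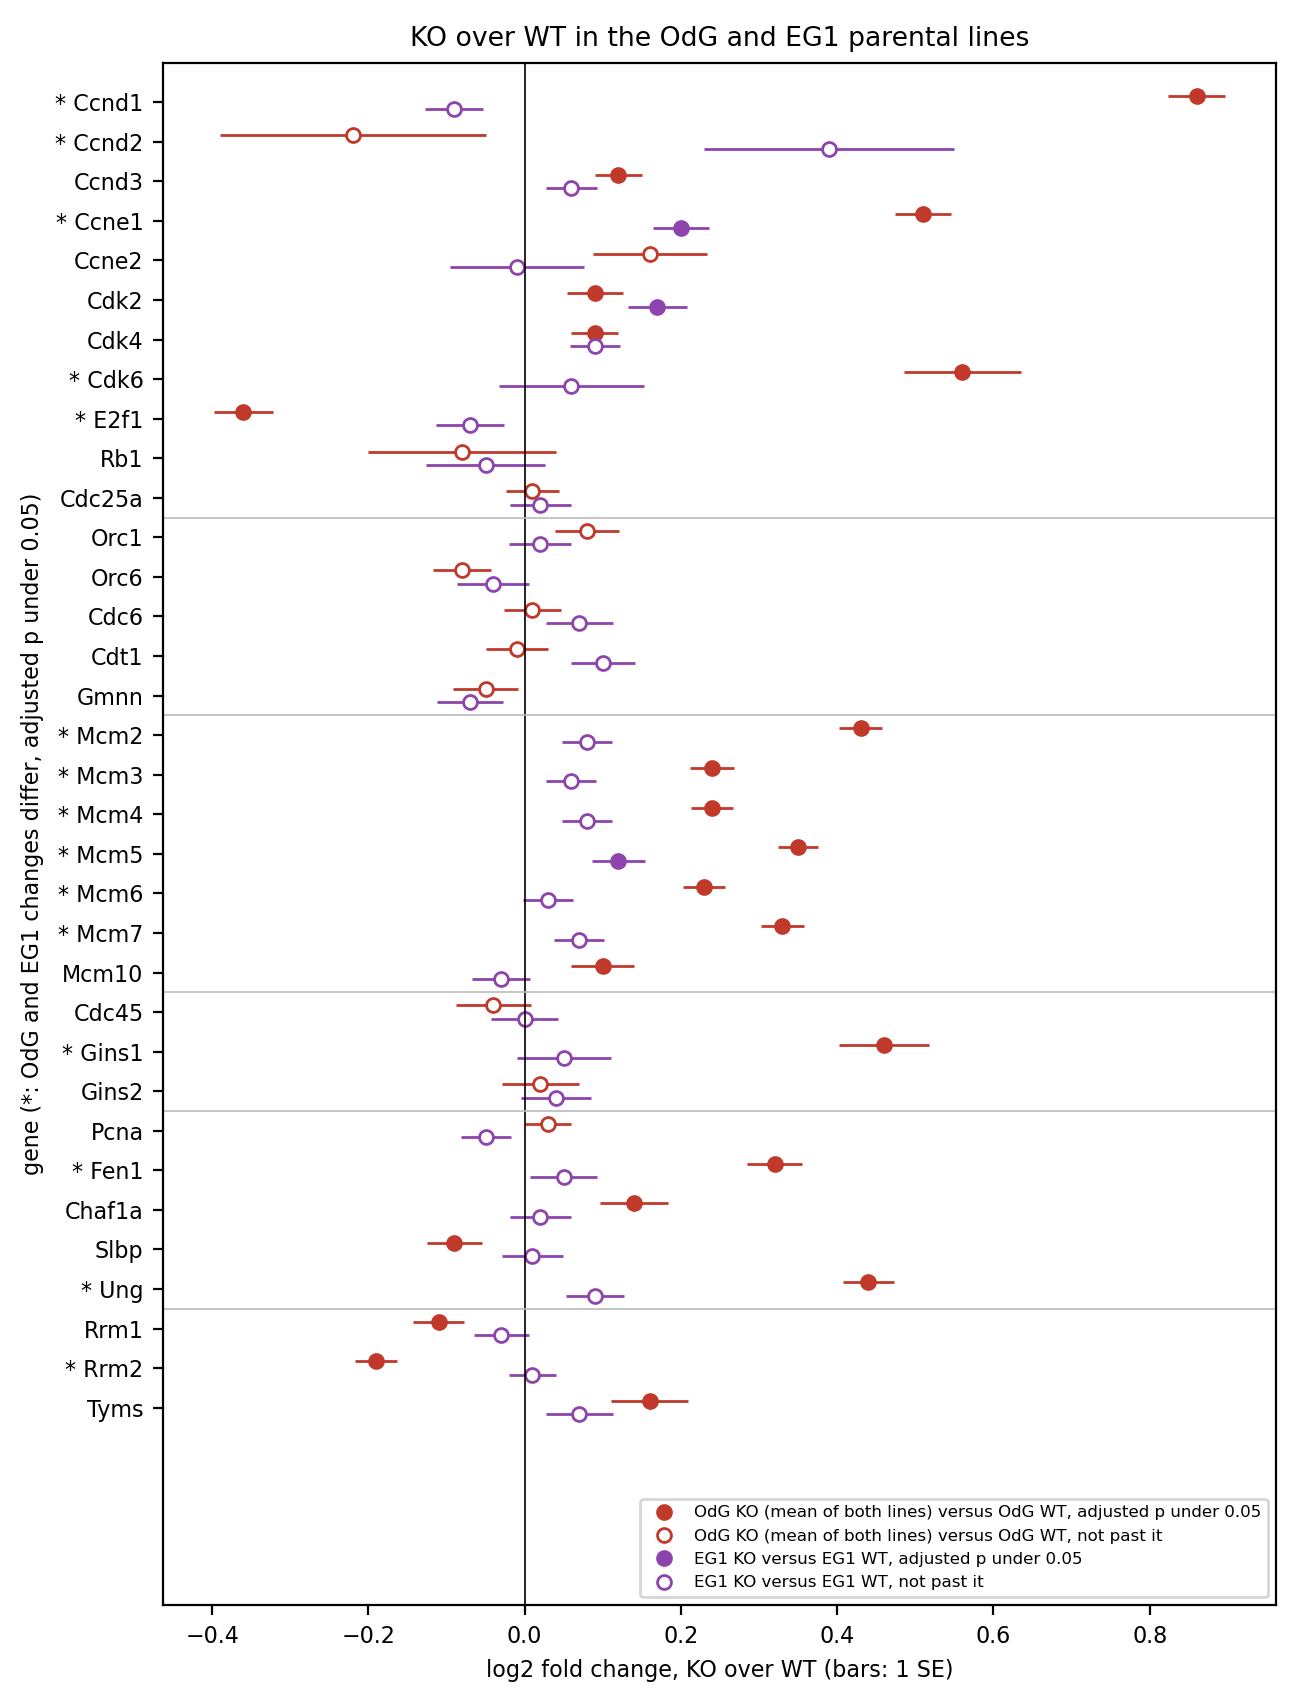
Log2 fold change of KO over WT (points, with bars of 1 SE) for the 34 genes, in OdG as the mean of both lines (red) and in EG1 (purple), with filled points at an adjusted p under 0.05 (edgeR). Stars mark the 15 genes for which the OdG and EG1 changes differed by the direct test, and 22 OdG points are filled beside 3 EG1 points.

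The KO lines of OdG also differed from each other. In line 2 against line 1, 11 of the 34 genes were higher (32.4%) and 6 lower (17.6%), beside 18.6% and 19.2% of all genes (37.8% in either direction). Cdk6 was higher in line 2 by 0.40 ± 0.080 (adjusted p = 0.00077) and Cdk2 by 0.27 ± 0.042 (adjusted p = 6.3e-05), while Ccnd1, Gins1 and Ung differed between the lines by 0.03 or less on the log2 scale. Mcm6 was higher in line 2 by 0.15 ± 0.031 (adjusted p = 0.00097), Mcm7 by 0.15 ± 0.031 (adjusted p = 0.0011) and Mcm4 by 0.14 ± 0.031 (adjusted p = 0.0015). Those 5 calls (Cdk2, Cdk6, Mcm4, Mcm6 and Mcm7) were the ones kept in each of the 10 alternatives run. Leaving out any 1 KO library, which left 1 library in its line, lowered the count of 17 called genes. The count of calls over all genes fell too in each case. By DESeq2, 7 of the 34 were called (20.6%), beside 23.6% of all genes.

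Taking the mean of the lines, 18 of the 34 genes were higher in OdG KO and 4 lower than in OdG WT, beside 29.4% and 30.5% of all genes (59.9% in either direction). With a log2 change of at least 0.25 also required, 10 of the 34 passed (29.4%, 9 higher and 1 lower). In either direction that is a lower share than the 44.3% of all genes that did. By direction, 2834 of the 14413 genes tested were higher and 3555 lower, so rises made up more of the 10 calls than of all calls. When the 4 KO libraries were instead treated as 1 group, the difference between lines entered the error. In that fit 12 were higher and 2 lower (41.2% in all), beside 32.0% of all genes, 2378 of them higher and 2231 lower. It counts the 4 libraries as separate replicates although they come from 2 lines, so it can understate the spread between lines. The 8 calls lost were Ccnd3, Cdk2, Cdk4, Mcm10, Chaf1a, Slbp, Rrm1 and Tyms, all with a log2 change of at most 0.16 in size. The 14 kept were the 6 MCM subunits, Ccnd1, Ccne1, Cdk6, Gins1, Fen1, Ung, E2f1 and Rrm2.

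In EG1, 3 of the 34 genes rose (8.82%), beside 3.60% of all genes, and 0 fell by edgeR and by DESeq2, beside 4.06% of all genes. At an unadjusted p under 0.05, 10 of the 34 were higher and 1 lower, beside 1433 and 1520 of the 14016 genes tested. In either direction 7.66% of all genes passed. With a log2 change of at least 0.25 also required, 0 of the 34 passed, since the 3 called changes were 0.12 to 0.20, beside 4.02% of all genes. Those that rose were Ccne1, Cdk2 and Mcm5, whose values are given above, and the median log2 change of the 34 was 0.04, beside -0.00 over all genes. Of the 3, Ccne1 and Mcm5 rose in both OdG lines as well, and Cdk2 in line 2. All 6 MCM subunits had a positive log2 change in EG1, from 0.03 to 0.12, and their summed level was 3100 to 3254 CPM in EG1 KO against 2986 to 2999 CPM in EG1 WT.

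The difference between the parental lines was tested directly as the KO change in OdG (mean of the lines) minus that in EG1. The labels name no second KO line in EG1, so parental line and KO line cannot be told apart in this test. The difference was positive for 12 of the 34 genes (35.3%) and negative for 3 (8.82%), beside 20.2% and 19.5% of all genes (39.8% in either direction). Ccnd1 differed most, by 0.94 ± 0.052 (adjusted p = 3.4e-15). The 6 MCM subunits differed by 0.15 to 0.34, Mcm2 by the most (0.34 ± 0.043, adjusted p = 2.6e-07). Ccne1, which rose in both parental lines, rose by 0.30 ± 0.051 more in OdG (adjusted p = 2.1e-05), and Mcm5 by 0.22 ± 0.046 more (adjusted p = 3e-04). For E2f1 and Rrm2 the difference was -0.30 ± 0.058 and -0.21 ± 0.041. For Cdk2, called in line 2 and in EG1, it was -0.09 ± 0.053 and did not pass the test (adjusted p = 0.18).

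The WT lines differed from each other at most of these genes. In EG1 WT against OdG WT, 22 of the 34 genes were higher (64.7%) and 5 lower (14.7%), beside 35.0% and 35.4% of all genes (70.3% in either direction). The parental line and the count table cannot be told apart in this comparison. Rb1 differed most, with 24.9 ± 1.48 CPM in EG1 WT (n = 3) and 8.91 ± 1.59 CPM in OdG WT (n = 2), a log2 difference of 1.48 ± 0.11 (adjusted p = 2.7e-13). Ccne1 was higher in EG1 WT by 0.92 ± 0.040, Mcm7 by 0.65 ± 0.034, Mcm2 by 0.60 ± 0.034 and Ccnd1 by 0.53 ± 0.040. Cdk6 was lower in EG1 WT by 0.67 ± 0.094 and Cdc6 by 0.35 ± 0.043 on the log2 scale. For Ccnd1, Ccne1, Mcm2 and Mcm7, genes that rose in OdG KO, EG1 WT thus lay above OdG WT. Mcm3, Mcm4, Mcm5, Gins1, Fen1 and Ung, which also rose there, were higher in EG1 WT as well. Cdk6, which rose too, was lower, and Mcm6 did not pass the test (-0.06 ± 0.032, adjusted p = 0.1). Both differences use the same 2 OdG WT libraries, so they are not independent. For Ccnd1 the OdG KO libraries exceeded all 6 EG1 libraries. For Ccne1, Mcm2 and Mcm7 each of the 6 EG1 libraries was above all 4 OdG KO libraries. The Ccne2 call was lost without replicate 3 of EG1 WT (adjusted p = 0.074) or replicate 2 of OdG WT (adjusted p = 0.06), and that of E2f1 without replicate 1 of EG1 WT (adjusted p = 0.14) or of OdG WT (adjusted p = 0.12) and by DESeq2 (adjusted p = 0.062). Calls of Cdk2 (adjusted p = 0.076) and Mcm4 (adjusted p = 0.14) were lost without replicate 2 of OdG WT, and that of Cdc45 without its replicate 1 (adjusted p = 0.099).

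A further 97 genes of the same pathways were examined as a list. In line 1, 49 of them rose and 20 fell, in line 2, 51 rose and 14 fell, and in EG1, 2 rose and 1 fell. As shares, 50.5% rose and 20.6% fell in line 1, beside 26.8% and 26.1% of all genes, and 52.6% rose and 14.4% fell in line 2, beside 30.0% and 29.8%. In EG1 the shares were 2.06% and 1.03%, below the 3.60% and 4.06% of all genes. Their median log2 change was 0.14 in line 1 and 0.16 in line 2. Orc2, an origin recognition subunit, averaged 130 CPM in line 1 and 140 CPM in line 2, against 90.8 CPM in OdG WT, and rose by 0.52 ± 0.040 and 0.64 ± 0.040. The histone chaperone Nasp rose by 0.49 ± 0.032 in line 1 and 0.40 ± 0.032 in line 2. Nme1, a nucleoside diphosphate kinase, and Pole4, a subunit of polymerase epsilon, were among the clearest rises in line 1 (0.67 ± 0.055 and 0.53 ± 0.045), and the chromatin remodeler Hells was among those in line 2 (0.50 ± 0.034). Pola2 and Pold2, accessory subunits of polymerases alpha and delta, fell in line 2 (-0.34 ± 0.046 and -0.27 ± 0.043). In EG1, Recql4, a helicase that takes part in initiation, rose by 0.21 ± 0.054 (adjusted p = 0.012), and Chtf18, a clamp loader subunit, by 0.12 ± 0.037 (adjusted p = 0.045). Of 12 polymerase and primase subunits, 6 rose and 2 fell in line 1, and 6 rose and 3 fell in line 2. Of the 5 clamp loader subunits 3 rose in each line, as did 2 of the 3 subunits of the single-strand binding complex RPA. These lists are short, and the shares that fell among the polymerase and primase subunits, 16.7% in line 1 and 25% in line 2, were not above the 26.1% and 29.8% of all genes.

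Some of the CDK inhibitors, which hold the kinases of G1 in check, fell in OdG. Of 7 tested, 5 fell in line 1 (71.4%, beside 26.1% of all genes) and 3 fell in line 2 (42.9%, beside 29.8%), and the others did not pass the test. Cdkn1c, which encodes p57, had 3.12 and 2.52 CPM in line 1 and 6.99 and 5.93 CPM in line 2, against 5.25 and 5.43 CPM in OdG WT. It was thus below WT in line 1 (log2 change -0.90 ± 0.19, adjusted p = 0.00058) and above WT in line 2, where it did not pass the test (0.28 ± 0.16, adjusted p = 0.14). Cdkn1b, which encodes p27, had 36.6 and 38.6 CPM in line 1 and 26.1 and 25.9 CPM in line 2, against 48.2 and 59.5 CPM in OdG WT. All 4 KO libraries were below both WT libraries, which themselves lay far apart, and line 2 was lowest. Cdkn1b fell by 0.52 ± 0.084 in line 1 (adjusted p = 5.6e-05) and by 1.04 ± 0.088 in line 2 (adjusted p = 1.7e-08). In EG1 it averaged 48.4 ± 3.59 CPM in KO and 49.3 ± 1.00 CPM in WT (SD, n = 3 each). Cdkn1a, which encodes p21, fell by 0.38 ± 0.037 in line 1, by 0.21 ± 0.037 in line 2 and by 0.13 ± 0.035 in EG1 (adjusted p = 0.017). Cdkn2c, a low gene, averaged 1.48 CPM in line 1 and 2.24 CPM in line 2, against 3.96 CPM in OdG WT, and fell in both lines. Rbl2, a pocket protein related to Rb1, averaged 9.12 CPM in line 1 and 9.01 CPM in line 2, against 15.4 CPM in OdG WT, and fell by 0.76 ± 0.12 and 0.77 ± 0.12.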

How the data were processed

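Raw counts, whole numbers for each gene symbol, were deposited by the authors in 1 table for OdG and 1 for EG1. Per the submitters' processing notes, the build was mm10 and the tools named were HISAT2 2.1.0, featureCounts 1.6.4, CASAVA and DESeq2, with no role or order. Annotation, filters and strand setting were left unstated in the sources used here. Per the labels' protocols, RNA was taken with Trizol and sequenced after preparation with a NEBNext Ultra RNA kit.

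Counts were fitted with edgeR 4.0.16 in R 4.3.3 (filterByExpr, TMM scaling, quasi-likelihood test, two-sided, 1 mean per group) over 14413 genes in OdG, 14016 in EG1 and 14977 in all 12 libraries, the last for the difference between parental lines and between WT lines. OdG KO is the mean of its lines on the log scale. Calls used an adjusted p under 0.05 over all genes tested. Total counts ran from 16110028 to 18774032 in OdG and from 17421260 to 19706599 in EG1, and the biological coefficient of variation was 3.34% and 3.53%. Within each group the libraries varied beyond counting noise, with a chi-square of 1.81 to 3.70 for each degree of freedom. Groups and replicate numbers came from the sample titles.

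Values in every library are given for the 16 genes that were called in both parental lines, were called for the difference between parental lines, or had a called KO change of at least 0.5 on the log2 scale, and the rest are given by group means, ranges and counts. Of 97 further pathway genes, those with the smallest adjusted p, up to 4 rises and 4 falls in a KO comparison, are named, except 1 that is not reported here. The members, lists and rules were chosen with earlier results of these data known. Gene positions and exon overlap come from GENCODE M21, and promoter sequence from RefSeq. The tests of line 1, of the OdG mean, of EG1 and of the difference between parental lines were run on simulated data. Those data assumed independent libraries, so they cannot show whether the replicates here are separate cultures. DESeq2 1.42.0, other scaling, no filter, a size threshold, a replicate block and leaving out each library were tried as alternatives.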

Additional observations from a re-analysis of the deposited data

Results flagged for a closer look

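For 15 of the 34 genes the KO change in OdG (mean of both lines) differed from that in EG1 by a direct test (edgeR's quasi-likelihood interaction over 12 libraries, Benjamini-Hochberg over 14977 genes, of which 39.8% passed in either direction). Values are OdG minus EG1 on the log2 scale. The cyclin genes gave 0.94 ± 0.052 for Ccnd1 (adjusted p = 3.4e-15), 0.30 ± 0.051 for Ccne1 (2.1e-05) and -0.61 ± 0.23 for Ccnd2 (0.032). Cdk6 gave 0.49 ± 0.12 (0.0017) and E2f1 gave -0.30 ± 0.058 (0.00014). The helicase genes gave 0.34 ± 0.043 for Mcm2 (2.6e-07), 0.26 ± 0.043 for Mcm7 (1.7e-05), 0.22 ± 0.046 for Mcm5 (3e-04), 0.19 ± 0.042 for Mcm6 (0.00053), 0.17 ± 0.045 for Mcm3 (0.0027), 0.15 ± 0.042 for Mcm4 (0.0059) and 0.40 ± 0.088 for Gins1 (0.00051). Ung gave 0.34 ± 0.050 (2.2e-06), Fen1 gave 0.26 ± 0.059 (0.00076) and Rrm2 gave -0.21 ± 0.041 (0.00016). The Ccnd2 call rests on 39 to 82 counts per library and was lost by DESeq2 (adjusted p = 0.11). It was also lost without replicate 3 of EG1 KO, replicate 3 of EG1 WT, replicate 2 of line 1, replicate 2 of line 2 or either replicate of OdG WT (adjusted p = 0.053 to 0.099). The other 14 calls were kept in all 16 alternatives. None of these let the difference between the OdG KO lines count as error, so they do not bear on that limit.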

How the results depend on the processing

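Of 1549 single-gene values recomputed under the alternatives, 1403 kept their direction and call, 146 lost the call and 0 reversed. Only genes already called were recomputed here, so calls gained are not counted. The alternatives reuse the same libraries, so a reversal was unlikely in advance. Requiring a log2 change of at least 0.25 left 10 genes called in OdG KO (mean of both lines), beside 44.3% of all genes, and 0 in EG1, beside 4.02%, against 22 and 3. Treating the OdG KO libraries as 1 group left 14, beside 32.0% of all genes. Line 2 against line 1 gave 17 calls, 7 by DESeq2 and 7 to 19 with 1 library left out. Leaving out 1 library gave 15 to 19 calls in line 1, 17 to 22 in line 2, 18 to 21 for OdG KO (mean of both lines), 2 to 3 in EG1, 14 to 16 for the difference between parental lines and 24 to 27 for the WT lines. A lone library left in a group was assumed to vary like the others. Calls over all genes also changed in number with 1 library left out, so these ranges are not particular to the 34. Same-numbered libraries did not deviate together (correlations -0.04 to 0.03 over 9 pairs). With a replicate block, 19 genes were called in line 1, 21 in line 2 and 22 for OdG KO (mean of both lines). Over all 14413 genes tested there, 7515, 8566 and 8542 were called. Line 2 against line 1 gave 15, beside 5334 over all genes, and EG1 gave 3, beside 906 of 14016. The difference gave 15 and the WT lines 25, beside 5863 and 9445 of 14977. The calls lost with the block were Tyms in line 2 (adjusted p = 0.061) and Mcm2 (0.057) and Orc1 (0.051) for line 2 against line 1. E2f1 (0.13) and Mcm4 (0.15) were lost for the WT lines. Over all genes, EG1 calls numbered 1074, 703 by DESeq2 and 638 to 672 without 1 EG1 WT library, and line 2 against line 1 gave 5454, 3406 by DESeq2. At these depths Ccnd2 and Rb1, the lowest of the 34 genes in OdG, had the largest errors there.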
